A study of Homo sapiens with 6 samples.

Results

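The genes described here encode the enzymes that burn fatty acids in mitochondria and peroxisomes. They were taken from a list of 34 symbols, each matched to the transcript clusters of the array whose annotation gives that 1 symbol. Of the 34, 32 were measured, among 18417 genes in the table. The 32 comprised 20 genes of mitochondrial steps, 8 of peroxisomal steps, 2 whose products work in both compartments (CRAT and ECI2) and 2 that belong to neither (CPT1C and PDK4). CPT1B was read by a cluster shared with its neighbour CHKB and was left out, and ACAD11 was not analysed here.

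All values come from 1 established human cell line, AGS, which was grown from a carcinoma of the stomach. One group received 20 µM celecoxib, an inhibitor of cyclooxygenase-2, for 24 h, and the other was labelled as untreated control, with 3 arrays per group. DMSO was the solvent of the drug, and nothing in the labels says whether control cells received it too. RNA was read on HuGene-1_0-st arrays, whose values are given on the log2 scale throughout. The labels call the replicates biological but also mention pooling after the RNA quality check, so the p-values speak only for the variation among these 6 arrays, part of which may be technical. Each array reads the RNA of a whole culture, so a different share of cells and a different level per cell cannot be told apart. All 7 epithelial marker genes checked, among them EPCAM, KRT8 and KRT18, lay above 6.79, the median of all clusters. The same held for 1 of 6 fibroblast markers, 0 of 5 endothelial markers, 1 of 5 leukocyte markers and 1 of 6 hepatocyte markers. It also held for 1 of 5 adipocyte markers, 1 of 5 muscle markers and 1 of 4 gastric mucous markers. The leukocyte marker was LYZ, at a mean of 13.68, above the brightest epithelial marker, KRT8, at 12.54. The hepatocyte marker was FGB, at 9.19. The others were COL1A1, PLIN1, ACTA1 and TFF1, between 6.98 and 7.78.

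Long-chain fatty acids enter mitochondria as carnitine esters, through a shuttle of transferases and a translocase. Inside, each turn of the spiral removes an acetyl unit by dehydrogenation, hydration, a further dehydrogenation and thiolysis, and the first dehydrogenation passes its electrons through electron transfer flavoprotein to ubiquinone. Peroxisomes shorten very long and branched chains with their own set of enzymes, whose first step is an oxidase that makes hydrogen peroxide instead of feeding the respiratory chain. Nuclear receptors of the PPAR and ERR families, with the coactivator PGC-1alpha, are known regulators of many of these genes in liver, heart and muscle.

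The comparison asked whether transcripts of these enzymes differed between celecoxib-treated and control cells, step by step and between the compartments. Most differences were positive and small. Of the 32 genes, 26 (81.2%) had a higher mean with celecoxib, where 47.9% of all genes did, and the median difference was 0.06, against -0.01 over all genes. None of the 32 passed an adjusted p of 0.05 in limma with Benjamini-Hochberg adjustment over all 18417 genes, a threshold that 0.141% of all genes passed (0.076% with a higher mean, 0.0652% with a lower one). At an unadjusted p under 0.05, 9 of the 32 genes (28.1%) were higher, against 6.87% of all genes, and 0 were lower, against 4.44% of all genes. The 9 were ETFDH, ACADSB, ACADM, HADHB, DECR1, DECR2, HADH, HSD17B4 and SLC25A20. The 3 celecoxib values lay above all 3 control values in 9 of the 32 genes (28.1%), with ECHS1 in place of HADH, and in 11.1% of all genes. In 0 of the 32 they lay below, which 7.95% of all genes did. Of the 32, 28 lay above the median signal, and among the 10873 genes above it 9.38% were higher and 4.73% lower by that criterion, 15.8% had celecoxib values above all controls and 52% had a positive difference.

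**Figure D1:**
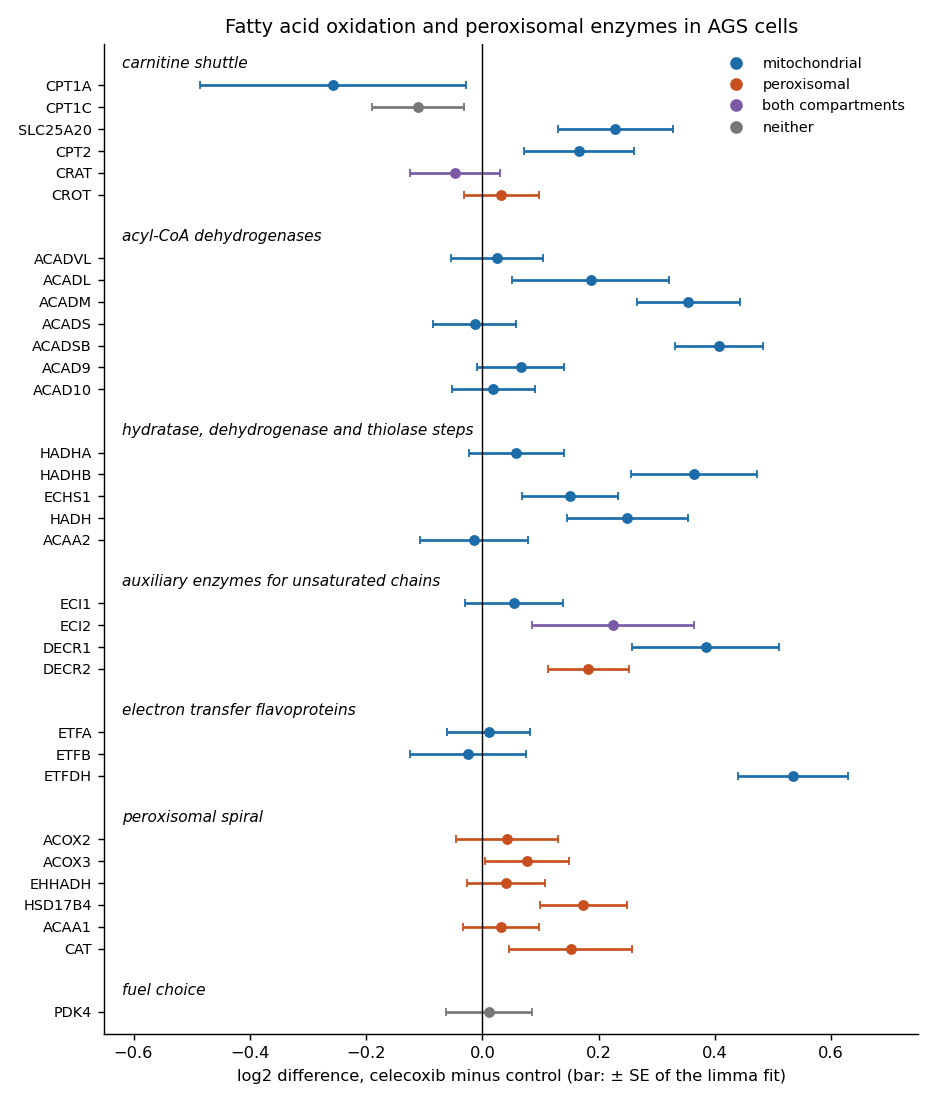
Log2 differences, celecoxib minus control, of the 32 measured genes, ordered by step of the pathway and coloured by compartment, with standard errors of the limma fit (3 arrays per group). Points of ETFDH, ACADSB, DECR1, HADHB and ACADM lie between 0.35 and 0.53, and CPT1A has the widest bar, 0.23 to either side of -0.26.

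The arrays did not carry this shift equally. Celecoxib replicate 1 held the highest of the 6 values in 24 of the 32 genes (75%), where it held the highest in 27.4% of all genes. Relative to the control mean, the median of the 32 genes was 0.18, 0.07 and 0.01 in celecoxib replicates 1, 2 and 3, and 0.01, -0.02 and 0.01 in the control replicates. Replicate 3 thus lay within the range of the controls, with 16 of its 32 genes above the control mean, against 26 in replicate 1 and 25 in replicate 2. Without celecoxib replicate 1, 5 genes (15.6%) were higher at an unadjusted p under 0.05, against 5.01% of all genes. They were ETFDH, ACADSB, ACADM, HADHB and DECR1, and the median of the 32 genes was 0.04. Without control replicate 2 the count was 4 (12.5%), namely ETFDH, ACADSB, ACADM and HADHB, against 3.89% of all genes.

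Transcripts of small nuclear and nucleolar RNA also differed between the arrays. Over 195 genes of this kind the median stood at 7.49, 7.21 and 7.17 in the celecoxib arrays, and 7.11, 6.98 and 7.13 in the controls, so the groups did not overlap and celecoxib replicate 1 stood highest. With this level as a covariate in the fit, 16 of the 32 differences were positive and their median was 0.0054. The level itself differed between the groups, so that fit cannot fully separate it from the treatment. In it, 2 genes (6.25%), ACADSB and ETFDH, were higher at an unadjusted p under 0.05, against 4.37% of all genes. The adjusted p of these 2 genes was then 0.365 and 0.388 (limma).

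**Figure D2:**
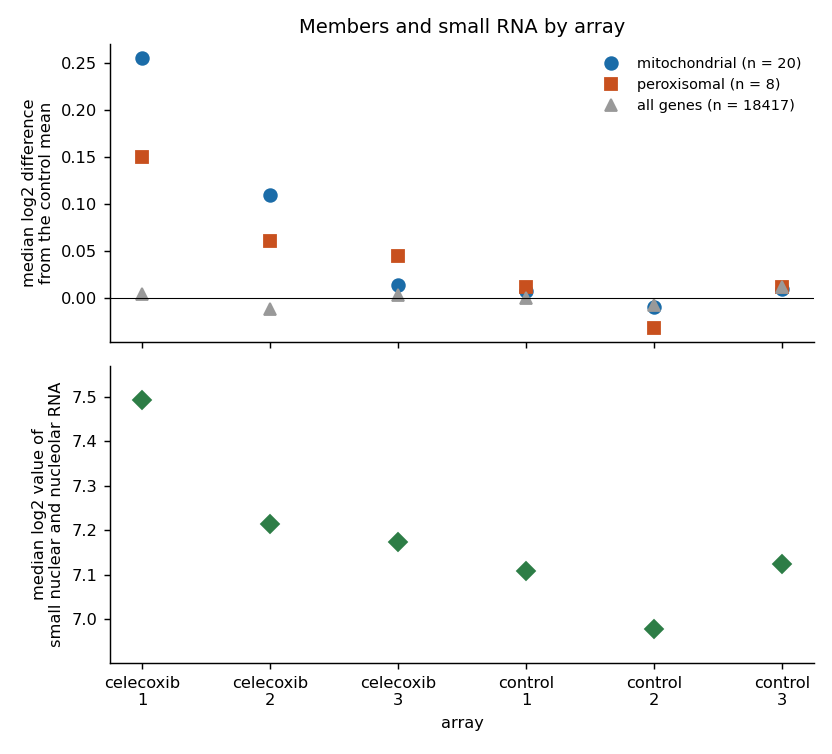
Top, median log2 difference from the control mean of the mitochondrial genes (n = 20), the peroxisomal genes (n = 8) and all genes (n = 18417) in each array. Bottom, median log2 value of 195 small nuclear and nucleolar RNA genes in the same arrays. Celecoxib replicate 1 is highest in both panels, at 0.26 for the mitochondrial genes and 7.49 for small RNA, and the medians of all genes stay within -0.01 and 0.01.

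At the entry step, the genes did not go one way. CPT1A, the transferase of the outer membrane that sets the pace of entry, had values of 8.54, 9.33 and 9.24 with celecoxib, and 9.42, 9.55 and 8.91 in the controls. The groups overlapped, with the lowest values in celecoxib replicate 1 and control replicate 3. The difference was -0.26 ± 0.23 (SE, n = 3 per group, limma adjusted p = 0.679), with a 95% interval from -0.78 to 0.27. Without celecoxib replicate 1 it was -0.0099, and the fit with the small RNA covariate gave 0.30. SLC25A20, the translocase that carries acylcarnitines across the inner membrane, had values of 7.50, 7.24 and 7.21 with celecoxib, against 7.14, 6.98 and 7.16 in the controls. Its groups did not overlap, and it was 1.17-fold higher (0.23 ± 0.10, limma adjusted p = 0.438). Both interval bounds of that difference were positive, from 0.0026 to 0.45. CPT2, which frees the acyl group inside, differed by 0.17 ± 0.09 and had overlapping groups. CPT1C, a relative found mostly in neurons and in the endoplasmic reticulum, differed by -0.11 ± 0.08. The transferases for shorter chains stood near 0, with CRAT, the carnitine acetyltransferase, at -0.05 ± 0.08 and the peroxisomal octanoyltransferase CROT at 0.03 ± 0.06.

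The first dehydrogenation is shared out by chain length, and the enzymes for medium and for short branched chains stood apart. ACADM, the medium-chain acyl-CoA dehydrogenase, had values of 10.54, 10.31 and 10.33 with celecoxib, and 10.02, 9.96 and 10.14 in the controls. The lowest celecoxib array lay 0.17 above the highest control. ACADM was 1.28-fold higher (0.35 ± 0.09, SE, n = 3 per group, limma adjusted p = 0.249). ACADSB, which acts on short branched chains from isoleucine, had values of 7.78, 7.77 and 7.64 with celecoxib, and 7.37, 7.35 and 7.24 in the controls. Each group lay within a range of 0.14, and the gap between them was 0.27. ACADSB was 1.33-fold higher (0.41 ± 0.08, limma adjusted p = 0.116). It was higher at an unadjusted p under 0.05 in all 16 alternative fits, with differences from 0.34 to 0.45.

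The other dehydrogenases of this step differed little. ACADVL, for very long chains, differed by 0.03 ± 0.08, and ACADS, for short chains, by -0.01 ± 0.07. ACAD9, which also helps to assemble respiratory complex I, differed by 0.07 ± 0.07 and ACAD10 by 0.02 ± 0.07. The 95% intervals of these 4 lay between -0.18 and 0.24. ACADL, for long chains, differed by 0.19 ± 0.13, but its mean of 4.93 over the arrays was below the median signal, and celecoxib replicate 1 alone held 5.31, against 5.03 and 4.72 in the other celecoxib arrays and 4.79, 4.83 and 4.88 in the controls.

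The trifunctional protein of the inner membrane carries out the later steps for long chains, with hydratase and dehydrogenase activity on the subunit encoded by HADHA and the thiolase on that encoded by HADHB. HADHB had values of 10.46, 10.14 and 10.20 with celecoxib, and 9.94, 9.75 and 10.02 in the controls. Its groups did not overlap, and it was 1.29-fold higher (0.36 ± 0.11, SE, n = 3 per group, limma adjusted p = 0.315). HADHA had values of 10.67, 10.47 and 10.44 with celecoxib, against 10.47, 10.43 and 10.50 in the controls. Those groups overlapped, and the difference was 0.06 ± 0.08 with a 95% interval from -0.13 to 0.24. The gap between the log2 values of HADHB and HADHA was compared between the groups, a contrast chosen after the values were seen. The gap was -0.21, -0.33 and -0.24 with celecoxib, and -0.53, -0.69 and -0.48 in the controls. The means differed by 0.31, with no overlap. An exact two-sided permutation test gave p = 0.1, the smallest that 3 against 3 arrays allow. That p follows from the lack of overlap already seen, so the test adds nothing to the values. This gap was 1 of 2 such gaps tested.

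HADHA and HADHB lie head to head on chromosome 2, on opposite strands, with 306 bases between their annotated starts. The stretch before HADHB is shown because it lies before both genes. That of ACADM is an example, picked by no rule, from the 9 genes whose groups did not overlap. Others of the 9, such as ACADSB with 3 GC boxes in its window, are not shown. Both are from RefSeq on GRCh38.p14, 250 bases ending just before the annotated start, 5′ to 3′ on the strand of the gene. Capitals mark GC boxes, the letters GGGCGG on either strand.
HADHB, chr2:26244689-26244938, plus strand: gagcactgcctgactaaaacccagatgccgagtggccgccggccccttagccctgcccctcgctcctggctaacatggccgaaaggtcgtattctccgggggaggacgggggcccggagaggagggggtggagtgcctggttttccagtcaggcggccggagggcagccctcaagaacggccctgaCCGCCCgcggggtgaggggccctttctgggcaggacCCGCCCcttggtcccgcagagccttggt
ACADM, chr1:75724459-75724708, plus strand: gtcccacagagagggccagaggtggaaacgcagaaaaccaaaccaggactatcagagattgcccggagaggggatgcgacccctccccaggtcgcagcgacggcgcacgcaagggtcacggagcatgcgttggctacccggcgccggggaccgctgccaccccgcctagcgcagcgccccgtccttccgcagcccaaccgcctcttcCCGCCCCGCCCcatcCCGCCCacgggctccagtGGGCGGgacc

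GC boxes, bound by SP-family factors, were a shared feature of these windows. Entries were matched by symbol for 25 of the 34 listed genes. They gave 32 windows of 250 bases, since some genes have several starts, and the windows of HADHA and HADHB share 194 bases. No entry was found for ETFDH, DECR1, DECR2, ACOX2, EHHADH, ACAA1, CRAT, CPT1B and ACAD11, so the counts do not cover these genes. Each motif was searched on both strands. A GC box was present in 26 of the 32 windows (81.2%), against 42.6% of all 35116 windows of the same length. Median GC content was 66% in the 32 windows and 58% in all. The half-site of nuclear receptors, AGGTCA on either strand, was found in 1 of the 32 windows (ACAD10), against 12.1% of all windows. The extended ERR site TCAAGGTCA, which contains the half-site, was in 0 of the 32 and in 0.319% of all windows, and the PPAR repeat AGGTCANAGGTCA, which holds it on both sides, was in 0 of the 32 and in 0.0171% of all. These counts say only which letters are in the 250 bases before a start. GC boxes were also present before genes with differences near 0, 1 before ETFA and 2 before ACADS.

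Of the other enzymes of these steps in the matrix, HADH and ECHS1 had positive differences and ACAA2 one near 0. HADH, the hydroxyacyl-CoA dehydrogenase for short and medium chains, had values of 9.80, 9.59 and 9.42 with celecoxib, and 9.30, 9.31 and 9.45 in the controls. Celecoxib replicate 3 lay below control replicate 3, so the groups overlapped. The difference was 0.25 ± 0.10, or 1.19-fold (limma adjusted p = 0.429). ECHS1, the short-chain enoyl-CoA hydratase, had values of 9.93, 9.71 and 9.71 with celecoxib, and 9.67, 9.59 and 9.63 in the controls. Its groups did not overlap, by 0.04 at the nearest, and it differed by 0.15 ± 0.08. ACAA2, the matrix thiolase, differed by -0.01 ± 0.09 and was read at a mean of 5.08, below the median signal.

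The auxiliary enzymes that deal with double bonds were positive in 4 of 4 genes, with a median of 0.20. DECR1, the dienoyl-CoA reductase of mitochondria, had values of 8.24, 7.86 and 7.75 with celecoxib, and 7.58, 7.46 and 7.66 in the controls. It was 1.30-fold higher, without overlap (0.38 ± 0.13, SE, n = 3 per group, limma adjusted p = 0.352). DECR2, its peroxisomal counterpart, had values of 8.28, 8.29 and 8.21 with celecoxib, and 8.15, 8.07 and 8.02 in the controls. The groups were tight and did not overlap, and DECR2 was 1.13-fold higher (0.18 ± 0.07, limma adjusted p = 0.396). The enoyl-CoA isomerases, which shift a double bond into place, were less regular. ECI2 differed by 0.22 ± 0.14, with celecoxib replicate 1 at 8.77 and replicate 2 at 8.21, where the controls held 8.27, 8.16 and 8.40. ECI1 differed by 0.05 ± 0.08.

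ETFDH, the membrane oxidoreductase that hands electrons from the flavoprotein to ubiquinone, had the largest difference of the 32 genes. Its values were 8.07, 7.84 and 7.83 with celecoxib, and 7.48, 7.41 and 7.25 in the controls. The lowest celecoxib array lay 0.35 above the highest control. ETFDH was 1.45-fold higher (0.53 ± 0.09, SE, n = 3 per group, limma adjusted p = 0.0987), with a 95% interval from 0.32 to 0.75. By its unadjusted p it ranked 83rd of 18417 genes and ACADSB ranked 96th. In the 16 alternative fits the difference ranged from 0.41 to 0.58, with an unadjusted p under 0.05 in all of them. The limma adjusted p of ETFDH was under 0.05 in 1 of them, array weights, at 0.0468. In that fit 177 of all genes passed, against 26 in the main one. With all clusters tested together the limma adjusted p of ETFDH was 0.429.

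The groups overlapped for both subunits of the soluble flavoprotein from which ETFDH receives electrons. ETFA, its alpha subunit, had values of 10.92, 10.82 and 10.77 with celecoxib, and 10.87, 10.79 and 10.82 in the controls, a difference of 0.01 ± 0.07. ETFB, the beta subunit, differed by -0.02 ± 0.10, with values of 8.10, 7.82 and 7.81 in celecoxib arrays against 7.86, 7.89 and 8.05 in controls. The intervals were -0.15 to 0.17 for ETFA and -0.25 to 0.21 for ETFB. The gap between ETFDH and the mean of the 2 subunits, also chosen after the values were seen, was -1.44, -1.48 and -1.47 with celecoxib, and -1.89, -1.93 and -2.19 in the controls. The means differed by 0.54 without overlap, close to the 0.53 of ETFDH alone. The exact two-sided permutation p was 0.1, again the smallest possible. It follows from the lack of overlap already seen, so the test adds nothing to the values.

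**Figure D3:**
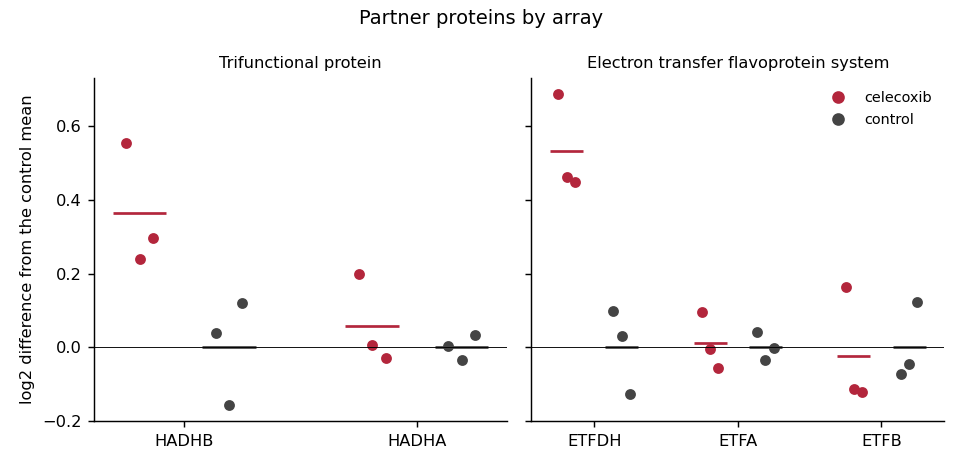
Log2 difference from the control mean in each array for the subunits of the trifunctional protein (HADHB, HADHA) and for the electron transfer flavoprotein system (ETFDH, ETFA, ETFB). Lines are group means (n = 3 each). The celecoxib and control points separate for HADHB and ETFDH and overlap for HADHA, ETFA and ETFB.

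In peroxisomes, all 8 genes had positive differences, between 0.03 and 0.18, where 47.9% of all genes were positive. DECR2 and HSD17B4, 2 of the 8, had an unadjusted p under 0.05, against 6.87% of all genes higher at that level. In the fit with the small RNA covariate the median of the 8 was -0.0054. HSD17B4, the D-bifunctional enzyme that hydrates and dehydrogenates very long and branched chains, had values of 10.15, 10.03 and 10.15 with celecoxib, and 9.95, 9.86 and 10.00 in the controls. It was 1.13-fold higher, without overlap (0.17 ± 0.07, SE, n = 3 per group, limma adjusted p = 0.436). EHHADH, the other bifunctional enzyme of the organelle, had values of 7.72, 7.78 and 7.79 with celecoxib, against 7.72, 7.76 and 7.68 in the controls. Those groups overlapped, and the difference was 0.04 ± 0.07. The oxidases of branched chains, ACOX2 and ACOX3, differed by 0.04 ± 0.09 and 0.08 ± 0.07, and ACOX2 was below the median signal with a mean of 5.98. ACAA1, the peroxisomal thiolase, differed by 0.03 ± 0.07. CAT, the catalase that breaks down the peroxide made by the oxidases, had values of 9.44, 9.15 and 9.20 with celecoxib, and 9.14, 8.96 and 9.24 in the controls. It overlapped and differed by 0.15 ± 0.11.

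Set side by side, the mitochondrial genes had a median difference of 0.11 and the peroxisomal genes of 0.06. Positive differences numbered 16 of 20 mitochondrial genes and 8 of 8 peroxisomal genes, against 47.9% of all genes and 52% of those above the median signal. An unadjusted p under 0.05 with a higher mean was reached by 7 of 20 and 2 of 8. The shares were 6.87% of all genes and 9.38% of those above the median signal. The mitochondrial genes were the more scattered, from -0.26 to 0.53. Relative to the control mean, the mitochondrial median was 0.26, 0.11 and 0.01 in celecoxib replicates 1 to 3, and the peroxisomal median was 0.15, 0.06 and 0.04. The mitochondrial median minus the peroxisomal one was therefore 0.11, 0.05 and -0.03 in the celecoxib arrays, and -0.0042, 0.02 and -0.0020 in the controls, so the groups overlapped and the compartments did not separate beyond the spread of the arrays. Without celecoxib replicate 1 the medians were 0.06 and 0.05.

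PDK4 is a kinase that shuts off pyruvate dehydrogenase when fat is burned, and in many tissues it is among the PPAR targets that respond most. Its values were 5.75, 5.73 and 5.66 with celecoxib, against 5.78, 5.61 and 5.72 in the controls. They overlapped and lay below the median signal, and the difference was 0.01 ± 0.07 with a 95% interval from -0.16 to 0.18.

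**Figure D4:**
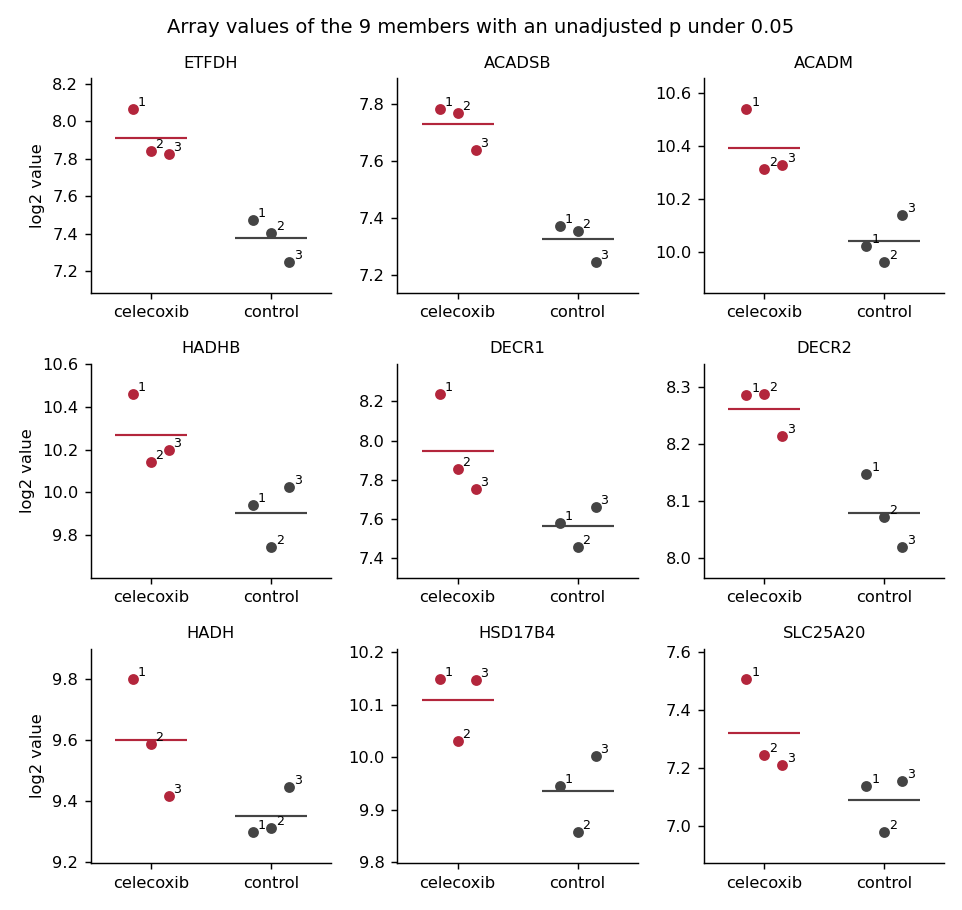
Log2 values in each array (numbers give the replicate) for the 9 genes with an unadjusted p under 0.05, with lines at the group means. The groups overlap for HADH and do not for the other genes, and celecoxib replicate 1 is the highest point for 8 of the 9, DECR2 being the exception.

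Lists of neighbouring genes of the pathway were read from the same fit. Across 10 lists, 142 genes that are not among the 32 were measured, and 0 passed an adjusted p of 0.05. An unadjusted p under 0.05 was reached by 21 of the 142 with a higher mean and by 2 with a lower one. Of all genes, 6.87% and 4.44% did so, and these shares are also the background for the counts of each list below. The median difference of the 142 was 0.04. The genes named are those with the 2 smallest p-values of each list.

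Among regulators, 3 of 18 genes were higher at an unadjusted p under 0.05 and 0 were lower, with a median of -0.0011. ESRRG, an estrogen-related receptor that drives oxidative genes in heart and muscle, had values of 8.04, 7.77 and 7.85 with celecoxib, and 7.37, 7.16 and 7.48 in the controls. It was 1.47-fold higher (0.55 ± 0.11, SE, n = 3 per group, limma adjusted p = 0.129). PPARGC1A, which encodes PGC-1alpha, a coactivator of PPAR and ERR receptors, had values of 7.91, 7.92 and 7.73 with celecoxib, against 7.43, 7.45 and 7.51 in the controls. It was 1.31-fold higher (0.39 ± 0.08, limma adjusted p = 0.144), and neither gene's groups overlapped. The receptors PPARA, PPARD, PPARG and ESRRA, named here for their role and not by the rule, differed by -0.0015 ± 0.12, -0.11 ± 0.10, 0.03 ± 0.07 and -0.0036 ± 0.082.

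Of 12 genes listed as PPAR targets outside the enzymes, 2 were higher at an unadjusted p under 0.05 and the median was -0.01. TXNIP, an arrestin-like protein that limits glucose uptake, differed by 0.48 ± 0.07 (limma adjusted p = 0.0546) and the lipid droplet coat protein PLIN2 by 0.31 ± 0.08. In the list of pyruvate dehydrogenase and its regulators, 5 of 12 genes were higher at that level, 11 of 12 differences were positive and the median was 0.17. PDK2, another pyruvate dehydrogenase kinase, stood at 0.28 ± 0.08 and DLD, the dihydrolipoamide dehydrogenase shared by several complexes, at 0.30 ± 0.10. On the control of entry by malonyl-CoA, ACACA, the carboxylase that makes it, was at -0.25 ± 0.08 with groups that did not overlap, and PRKAG1, a subunit of AMP-activated kinase, at 0.12 ± 0.07. That list had 0 of 11 genes higher and 1 lower.

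The list of other peroxisomal enzymes and transporters had 4 of 30 genes with an unadjusted p under 0.05 and a higher mean. It had 0 with a lower one, and a median of 0.07. The 4 were PHYH, ACOT8, GNPAT and MPV17, and MPV17 is a protein of the mitochondrial inner membrane, not a peroxisomal one. PHYH, which starts the breakdown of phytanic acid, differed by 0.28 ± 0.08 and ACOT8, a peroxisomal thioesterase, by 0.39 ± 0.13. The peroxins, which build the organelle, had 1 of 13 higher, 0 lower and a median of -0.0013, with PEX2 at 0.25 ± 0.10 and PEX14 at -0.17 ± 0.08. Thioesterases and carnitine supply had 4 of 14 higher and 1 lower, led by TMLHE, the first enzyme of carnitine synthesis, at 0.29 ± 0.07, and THEM4 at 0.23 ± 0.07. Uptake and activation had 1 of 20 higher, with ACSM3, a medium-chain acyl-CoA synthetase, at 0.30 ± 0.10 and the transporter SLC27A1 at 0.18 ± 0.09. Ketone body genes had 1 of 5 higher, with BDH2 at 0.28 ± 0.11 and BDH1 at -0.17 ± 0.08. Among other dehydrogenases that feed the flavoprotein, and its accessory factors, 0 of 7 reached an unadjusted p under 0.05, with ACAD8 at 0.15 ± 0.09 and ETFRF1 at 0.22 ± 0.13.

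**Figure D5:**
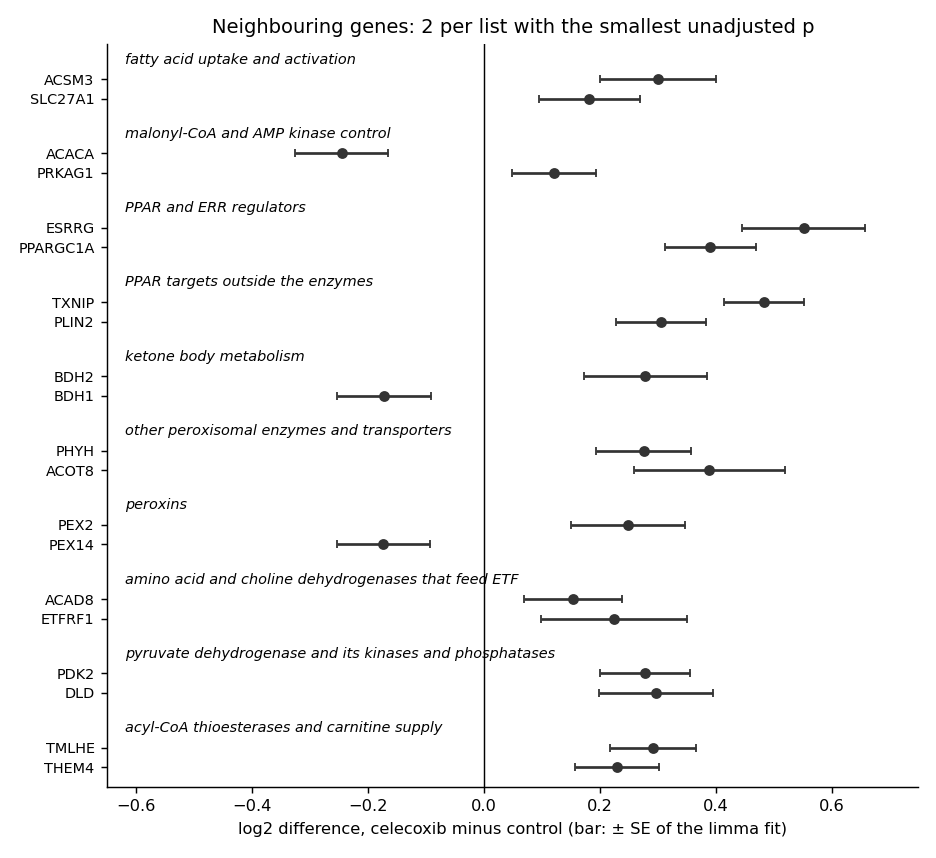
Log2 differences, celecoxib minus control, with standard errors of the limma fit (3 arrays per group), for the 2 genes with the smallest unadjusted p in each of 10 lists of neighbouring genes. ESRRG at 0.55, TXNIP at 0.48 and PPARGC1A at 0.39 lie to the right, and ACACA at -0.25 lies furthest to the left.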

How the data were processed

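The 6 arrays (3 celecoxib, 3 control) were grouped by their labels. The deposited table holds log2 values for 33297 transcript clusters, made by the authors with RMA in Affymetrix Expression Console 1.1, per the submitters' processing notes; no probe-level setting, slide or scan date is given, and no batch was tested. RMA pulls arrays to a common distribution, and no scanner signal was used to judge background.

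Clusters with 1 symbol in the platform annotation were kept (19460; 1754 had several and 12083 were unnamed here), and the brightest cluster stood for each of 18417 genes. Each of the 32 genes described had a single such cluster. All 32 were in the GRCh38.p14 gene table, with 0 changed symbols. limma 3.58.1 (lmFit, eBayes) in R 4.3.3 compared the groups, two-sided, with Benjamini-Hochberg adjustment over the 18417 genes. Differences are celecoxib minus control and errors are standard errors of that fit unless given as SD.

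The genes and lists were chosen with earlier results of these data known. All 34 listed genes are accounted for; of each neighbouring list the 2 genes with the smallest unadjusted p are named. No set test was run. The procedure was tested on simulated data whose noise was independent between genes, so differences shared by many genes of an array were not simulated. Alternatives were the mean of clusters, filters on dim genes (below 6.79, or below 5.04, the dimmest 20%), 2 renormalizations, an intensity trend, array weights, a block for the replicate number, small RNA level as a covariate, all clusters tested together, and leaving out each array. The labels state no pairing, so the main fit held no block. Same-numbered arrays had correlations of -0.017, 0.49 and 0.01 between their deviations from the group means. Those of differently numbered arrays ran from -0.49 to 0.41. Deviations within so few arrays are tied to each other, so these values cannot settle whether the arrays were paired. The number of arrays limits the precision. Figures were drawn with matplotlib 3.10.9.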

Additional observations from a re-analysis of the deposited data

How the results depend on the processing

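The count of all genes past an adjusted p of 0.05 was 26. It was 76 among genes above the median signal, 53 without the dimmest 20%, 40 after quantile normalization, 69 with an intensity trend and robust prior, 177 with array weights, 1 with small RNA level as a covariate and 0 with all clusters tested together (2551 at an unadjusted p under 0.05). Leaving out 1 array gave 0 to 5, with 1293 to 2353 genes at an unadjusted p under 0.05. With the replicate block it was 0 by limma, with 2448 at an unadjusted p under 0.05. Of the enzymes, 0 passed in the main comparison and in 15 of 16 alternatives, and 1, ETFDH, passed with array weights. The count of enzymes higher at an unadjusted p under 0.05 was 9, where 6.87% of all genes were higher. It was 2 with small RNA level as a covariate (4.37% of all genes) and 8 with the replicate block (7.73% of all genes). After quantile normalization it was 6 (6.8% of all genes), without SLC25A20, HADH and HSD17B4. With all clusters tested together it was 6 (5.25% of all genes), and with array weights 7 (9.81% of all genes). When 1 array was left out it was 4 to 10, lowest without control 2, where the share of all genes was 3.89% to 7.25%. The count of enzymes lower was 0, and 0 to 1 when 1 array was left out, the 1 being CPT1C without celecoxib 2. The median over all 32 ranged from 0.0054 to 0.11. For peroxisomal genes it was 0.06, with -0.0054 under the small RNA covariate and 0.046 to 0.12 when 1 array was left out. The cause of these shifts was not tested. Subtracting array medians moved the split of all genes at an unadjusted p under 0.05 from 1265 higher of 2083 to 1835 higher of 2299 and left the 9 enzymes as they were. Single enzymes changed sign in 43 of 507 fits, none of them in the 9. Signal over background was not available, so dim genes (ACADL, ACAA2, ACOX2, PDK4) are limited by an unknown floor.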
